A study of Mus musculus with 9 samples.

Results

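Retinoic acid is made inside cells from vitamin A and acts on genes through nuclear receptors. Retinol is taken up from its plasma carrier, oxidized reversibly to retinaldehyde, and then oxidized irreversibly to retinoic acid by the retinaldehyde dehydrogenases, which makes these enzymes the committed step. Retinoic acid binds receptors of the RAR family, which pair with RXR partners on repeated half-sites in DNA, and enzymes of the CYP26 family degrade it. In stratified epithelia, retinoids are known to hold back squamous and keratinizing differentiation, and several genes of the pathway are themselves induced by retinoic acid, among them *Rarb*, *Cyp26a1*, *Dhrs3* and *Stra6*.

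This account follows 9 genes of that pathway, of 19481 genes in the deposited table, through tumors in which *Tmprss11b*, a membrane-anchored serine protease, was knocked down. They are the retinaldehyde dehydrogenases *Aldh1a1*, *Aldh1a2* and *Aldh1a3*, the receptors *Rarb* and *Rarg*, the retinoic acid carrier *Crabp2*, the retinol receptor *Stra6*, the retinaldehyde reductase *Dhrs3* and the degrading enzyme *Cyp26b1*. The genes were chosen by symbol, with earlier results of these data known. *Aldh1a3* was selected on its counts in the sh2 tumors, so its values there are given as a description without a test. All 9 passed the filter on low counts, as did 14725 genes in all.

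The tumors were grown from KLN205 cells, a mouse lung squamous cell carcinoma line, placed under the skin of the right flank of wild-type female DBA/2 mice 6 to 8 weeks of age. In all, 3 groups of 3 tumors were compared. The cells of the shControl tumors carried an inducible scrambled shRNA, and those of the sh2 and sh3 tumors carried inducible shRNAs against *Tmprss11b* in SMART vectors. Mice of every group, controls included, drank doxycycline water once the mean tumor volume had reached 100 mm3, and tumors were resected on day 50. The hosts were immunocompetent, so each library holds RNA of carcinoma cells and of host stroma, and fewer cells of a type and less RNA per cell cannot be told apart. Since tumors of every group were taken on the same day, any difference in tumor size and the knockdown itself cannot be told apart either.

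Between 20653219 and 24047784 reads were counted per tumor, and 3 counts corresponded to 0.123 to 0.152 CPM (counts scaled to the total count of the tumor by the TMM method), a floor that covers counting error only. *Tmprss11b*, listed as *Tmprss11bnl*, had 18, 51 and 42 counts in the shControl tumors, 7, 2 and 5 in the sh2 tumors and 10, 4 and 5 in the sh3 tumors. Epithelial markers of carcinoma were abundant throughout, with all 6 of 6 detected and a summed level of 3976 to 5754 CPM in the shControl tumors, 4386 to 9032 CPM in the sh2 tumors and 4599 to 5171 CPM in the sh3 tumors. Several tumors stood apart in their markers. The second sh2 tumor had 655.8 CPM of 6 intestinal identity genes against 11.2 to 38.2 CPM in the other tumors, the first shControl tumor had the highest squamous marker level at 808.9 CPM, and the first sh3 tumor had the lowest squamous (82.9 CPM), macrophage (764 CPM) and endothelial (137.5 CPM) levels. The second sh3 tumor had the highest macrophage level (3782 CPM), and the third shControl tumor had 2559 CPM of skeletal muscle genes against 1.21 to 831 CPM in the others.

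Promoter sequence was examined first, to find which genes of the pathway carry the letters of a retinoic acid response element at their start. The element searched was DR5, a direct repeat with a spacer of 5 bases between nuclear receptor half-sites (AGGTCA, in which the first base could also be G and the third T), on both strands of the RefSeq promoter windows of the GRCm38.p6 build (250 bases before to 50 after a start). A match was found in 32 of 32851 windows, or 0.0974%. Windows were held for 7 of the 9 genes, and of these *Rarb* alone had a match. *Aldh1a3* and *Crabp2* had no window, so they were not searched. Among 71 further retinoid genes, 54 had a window and *Cyp26a1*, a retinoic acid degrading enzyme, alone had a match. The 120 bases before both starts are shown because these elements are the only DR5 matches among the retinoid genes searched, with the element in capitals. The *Rarb* stretch lies at chr14:16575477-16575596 on the minus strand, upstream of an annotated *Rarb* start, and its element spans 53 to 37 bases before it. The *Cyp26a1* stretch lies at chr19:37697688-37697807 on the plus strand, and its element, 32 to 16 bases before the start, reads on the opposite strand.
Rarb: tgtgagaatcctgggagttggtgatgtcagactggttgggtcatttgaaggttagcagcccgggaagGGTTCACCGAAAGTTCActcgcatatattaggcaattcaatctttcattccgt
Cyp26a1: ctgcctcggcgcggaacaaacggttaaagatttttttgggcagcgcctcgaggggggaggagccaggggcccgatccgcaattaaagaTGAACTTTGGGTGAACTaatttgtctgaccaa
The element of *Rarb* is a textbook retinoic acid response element. The related repeats DR2 and DR1, with spacers of 2 and 1 bases, occurred in 0.268% and 0.222% of windows and in none of the 7 genes with a window. A match is a description of letters and says nothing of binding in these tumors.

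The 9 genes were expressed over a wide range of levels. In TPM, which the authors scaled by gene length and which allows genes to be compared, *Rarg* had the highest level of the 9 in 7 of the 9 tumors (61.1 to 130.2 TPM over all tumors), and *Rarb* the lowest in 8 of 9 (0.35 to 1.86 TPM). *Dhrs3* (20.002 to 130.2 TPM) and *Stra6* (3.97 to 74.3 TPM) were the next most abundant in most tumors. The exceptions in first place were *Aldh1a3* in the second sh2 tumor, at 796.3 TPM, and *Dhrs3* in the second sh3 tumor, at 80.6 TPM.

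**Figure D1:**
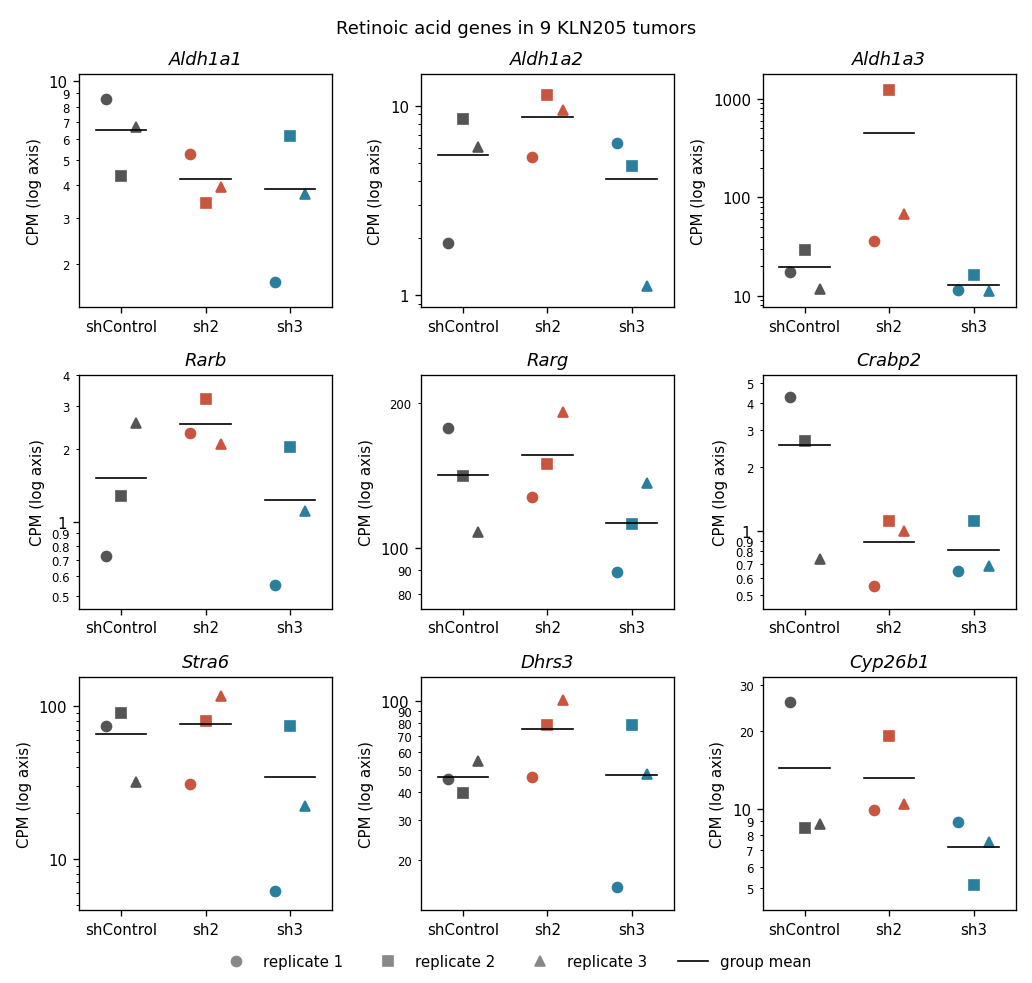
Level of each of the 9 genes in each tumor, as CPM on a log axis with a separate scale per panel, by group (n = 3 tumors each); symbols give the replicate number and black lines the group means. *Aldh1a3* in the second sh2 tumor, at 1232 CPM, lies far above the other 8 tumors (11.2 to 67.9 CPM), while the groups overlap for most of the other genes.

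The first step examined was the synthesis of retinoic acid. *Aldh1a3* (chr7:66390892-66427477, GRCm38.p6), a retinaldehyde dehydrogenase of epithelia, had 414, 709 and 286 counts in the shControl tumors, 867, 25509 and 1629 in the sh2 tumors and 249, 320 and 261 in the sh3 tumors. On the CPM scale these were 17.6, 29.3 and 11.7 in the shControl tumors, 36.5, 1232 and 67.9 in the sh2 tumors, and 11.5, 16.3 and 11.2 in the sh3 tumors. Every sh2 tumor was above every other tumor, but the second sh2 tumor was 18.1 times the next highest tumor and 110.4 times the lowest. The group means were 19.6 ± 8.97 CPM (SD, n = 3) with shControl, 445.4 ± 681.3 CPM (SD, n = 3) with sh2 and 13.0 ± 2.84 CPM (SD, n = 3) with sh3. The fitted log2 fold change of sh2 against shControl was 4.51, and it was 1.42 without the second sh2 tumor. Both values describe the tumors on which the gene was selected.

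The sh3 tumors were not used in the selection, although the controls are shared. There, the *Aldh1a3* log2 fold change against shControl was −0.59 (SE 1.09, FDR = 0.934 from edgeR's quasi-likelihood test with Benjamini-Hochberg adjustment over all genes), and the 3 sh3 tumors overlapped the controls. The SE comes from a spread shared by all groups and so includes that of the sh2 tumors. Without the second sh2 tumor the value was −0.61 with an FDR of 0.781.

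The second sh2 tumor held other genes that set it apart in the same way. Among the genes tested, *Aldh1a3* was eighth by the ratio of that tumor to the next highest. Ahead of it were *Muc13*, a membrane mucin of intestinal epithelium, at 48.5 times, and *Cdh17*, the intestinal cadherin, at 20.9 times. Between these 2 stood *H60c* (41.8 times), *BC021614* (27.9), *Clca4* (25.7), *Chst4* (25.3) and *Misp* (21.8). *Cdx2*, a transcription factor of intestinal identity, had rank 14 at 9.62 times. By rank of TPM over all listed genes, *Aldh1a3* was gene 137 in that tumor, 7002 and 4496 in the other sh2 tumors, and between 7834 and 10786 in the shControl and sh3 tumors. All 6 of 6 intestinal identity genes were in the table, and 4 passed the filter. Their summed level was 11.2 to 18.1 CPM in the shControl tumors and 12.02 to 25.2 CPM in the sh3 tumors. In the sh2 tumors it was 19.9 to 655.8 CPM, and *Cdh17* alone was at 422.9 CPM in the second sh2 tumor. *Vil1*, of the same list, did not set that tumor apart, at 0.34 CPM there and 0.29 CPM in the third sh2 tumor. The part of these genes in the *Aldh1a3* result was not tested.

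*Aldh1a1* (chr19:20492583-20643463), a retinaldehyde dehydrogenase widely used as a stem cell marker, was highest on average in the controls. It was at 8.55, 4.34 and 6.71 CPM in the shControl tumors, 5.26, 3.43 and 3.96 CPM in the sh2 tumors and 1.71, 6.196 and 3.72 CPM in the sh3 tumors. The control mean was 6.54 ± 2.11 CPM (SD, n = 3), but the lowest control lay inside the range of both knockdown groups. Fitted values gave a log2 fold change of −0.63 (SE 0.46, FDR = 0.999, edgeR) with sh2 and −0.76 (SE 0.46, FDR = 0.780) with sh3, and neither passed the test. Its level followed *Camta2* (Pearson r = 0.99 on log2 CPM over 9 tumors), then *Abat*, *Cyp27a1*, *Tmem204* and *Cdh11* (r = 0.96 to 0.97). *Camta2* led again when the second sh2, the first sh3 or the first shControl tumor was left out.

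*Aldh1a2* (chr9:71215789-71296243), the main retinaldehyde dehydrogenase of mesenchyme and mesothelium, was at 1.87, 8.48 and 6.06 CPM in the shControl tumors, 5.35, 11.4 and 9.51 CPM in the sh2 tumors and 6.38, 4.77 and 1.11 CPM in the sh3 tumors. The groups overlapped, since a low tumor was found in both the control and the sh3 group. The log2 fold change was 0.68 (SE 0.67, FDR = 0.999, edgeR) with sh2 and −0.42 (SE 0.67, FDR = 0.918) with sh3. The nearest genes in pattern over the 9 tumors were *Malt1*, *Phf20*, *Mpzl3*, *Zfp629* and *Prokr2* (r = 0.86 to 0.90), and none of them stayed in the nearest 5 when the second sh2 tumor was left out.

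The makeup of this enzyme family varied among tumors. The summed TPM of the 3 genes was 23.8, 34.1 and 23.3 in the shControl tumors, 37.7, 811.0 and 60.3 in the sh2 tumors and 16.6, 18.4 and 11.8 in the sh3 tumors. *Aldh1a3* made up 50.7%, 59.5% and 36.5% of that sum in the shControl tumors, 68.4%, 98.2% and 76.5% in the sh2 tumors and 48.1%, 48.1% and 58.6% in the sh3 tumors. These shares contain the selected *Aldh1a3* values and are a description.

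**Figure D2:**
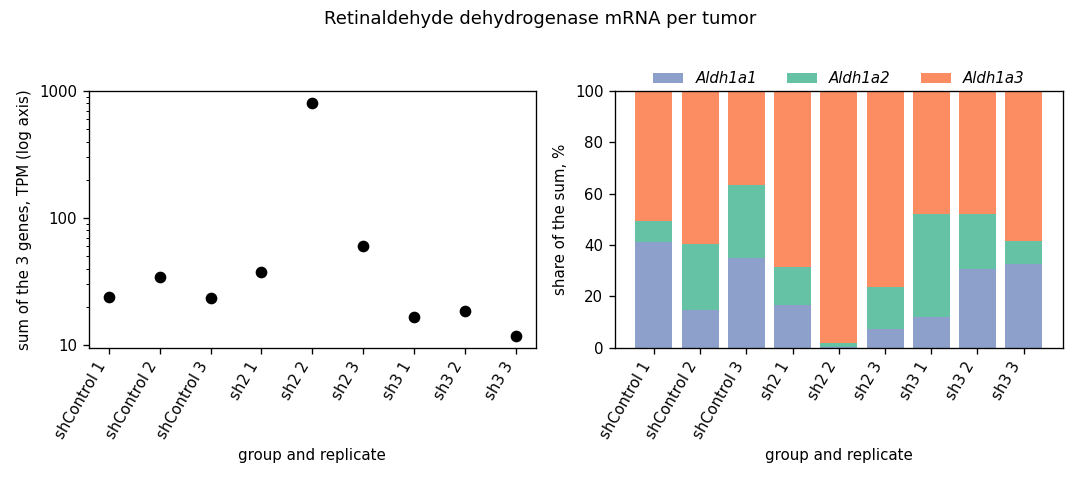
Left, summed TPM of *Aldh1a1*, *Aldh1a2* and *Aldh1a3* in each tumor on a log axis; right, the percentage of that sum from each gene. The *Aldh1a3* share is 68.4% to 98.2% in the sh2 tumors and 36.5% to 59.5% in the 6 other tumors.

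Uptake and retinaldehyde balance came next. *Stra6* (chr9:58063793-58154004), the cell surface receptor through which retinol enters from its plasma carrier, was at 74.3, 90.1 and 31.7 CPM in the shControl tumors, 30.9, 79.8 and 117 CPM in the sh2 tumors and 6.15, 74.3 and 22.0 CPM in the sh3 tumors. The first sh3 tumor was lowest and the third sh2 tumor highest, a 19.1-fold range that was second only to that of *Aldh1a3* among the 9 genes, and the groups overlapped. Its log2 fold change was 0.22 (SE 0.79, FDR = 0.999, edgeR) with sh2 and −0.94 (SE 0.80, FDR = 0.841) with sh3. The latter was −0.44 without the first sh3 tumor.

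*Dhrs3* (chr4:144892534-144928209), which reduces retinaldehyde back to retinol and so limits retinoic acid formation, was at 45.6, 39.4 and 54.5 CPM in the shControl tumors, 46.3, 78.2 and 101 CPM in the sh2 tumors and 15.3, 78.3 and 48.0 CPM in the sh3 tumors. The controls were close together, and knockdown tumors lay below, within and above their range. Fitted values gave a log2 fold change of 0.69 (SE 0.50, FDR = 0.999, edgeR) with sh2 and 0.02 (SE 0.50, FDR = 0.995) with sh3, where 1 tumor was far below and 1 above the controls.

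*Stra6* and *Dhrs3* tended to be low and high in the same tumors. Over 9 tumors Pearson's r between their log2 CPM was 0.82, a value exceeded by 1.63% of the genes compared with *Stra6* and 1.96% of those compared with *Dhrs3*, and it was 0.49 without the first sh3 tumor, so much of it rested on that tumor. The rank correlation was 0.52. No other pair among the 9 genes had a higher r over 9 tumors, and the lowest was −0.31 for *Rarb* and *Crabp2*. The shares above therefore belong to the top pair of many. The genes nearest to *Stra6* were *Maged2*, *Ap5b1*, *Haghl*, *Epn3* and *Cxcl14* (r = 0.95 to 0.98), and those nearest to *Dhrs3* were *Plagl1*, *Tjp3*, *Ankrd29*, *Idh1* and *Rbpms* (r = 0.96 to 0.97).

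**Figure D3:**
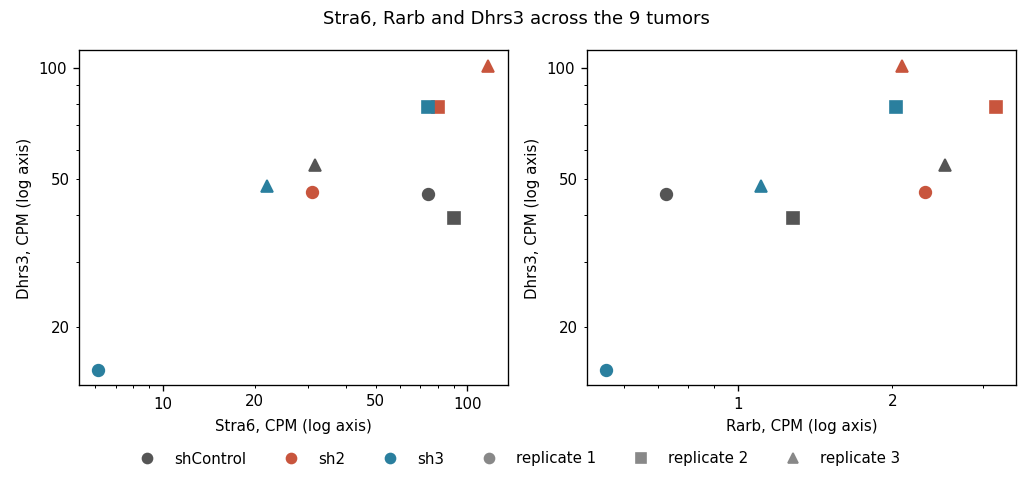
*Dhrs3* against *Stra6* (left) and against *Rarb* (right) in the 9 tumors, in CPM on log axes; color gives the group and shape the replicate number. The first sh3 tumor lies at the lower left in both panels, at 15.3 CPM of *Dhrs3*, 6.15 CPM of *Stra6* and 0.55 CPM of *Rarb*.

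*Crabp2* (chr3:87948693-87953372), which carries retinoic acid to the nucleus and its receptors, had the most negative fitted value of the 9 genes against shControl with each shRNA. It had 100, 64 and 18 counts in the shControl tumors, 13, 23 and 24 in the sh2 tumors and 14, 22 and 16 in the sh3 tumors, or 2.55 ± 1.76 CPM, 0.886 ± 0.299 CPM and 0.816 ± 0.261 CPM (SD, n = 3 each). Both of the high tumors were controls, but the third control, at 0.74 CPM, lay within the knockdown range. The log2 fold change was −1.52 (SE 0.61) with sh2, −1.64 (SE 0.62) with sh3 and −1.58 (SE 0.50) with both, with unadjusted P of 0.0343, 0.0257 and 0.0115 and FDR of 0.999, 0.753 and 0.982 from edgeR's quasi-likelihood test, so none passed. The 3 comparisons share the control tumors, and without the first of these the value for both shRNAs was −1.003.

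Over the 3 controls the squamous marker level had the same order as *Crabp2*, but within the sh2 and within the sh3 tumors it did not. Of 9 squamous and keratinocyte markers 8 were in the table, none of them at or under 3 counts in every tumor, and their sum was 808.9, 489.9 and 218.0 CPM in the first, second and the third shControl tumor, 225 to 249 CPM in the sh2 tumors and 82.9 to 408 CPM in the sh3 tumors. The third sh3 tumor had the 408 CPM, with *Crabp2* at 0.68 CPM, and the second sh3 tumor had 302 CPM, with *Crabp2* at 1.12 CPM. In the first shControl tumor *Krt1*, which did not pass the filter, had 605 counts, against 0 to 9 in the other tumors. *Krt5* had 2052 there, against 2 to 104. Taken singly, *Krt14*, *Krt10* and *Sox2* had the order of *Crabp2* over the controls, but *Krt1*, *Krt5*, *Krt6a*, *Trp63* and *Lor* did not. *Krt6a* was at 206, 292 and 116 CPM in the shControl tumors, and *Sox2* was nearly flat at 26.2, 24.7 and 22.6 CPM. The part of squamous cells in the *Crabp2* difference was not tested. The genes nearest to *Crabp2* in pattern were *Sphk1*, *Efna3*, *Mkl1*, *Cyb5r3* and *Mvk* (r = 0.85 to 0.90). None of these stayed in the nearest 5 when the first shControl tumor was left out.

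Among the receptors, *Rarg* (chr15:102234938-102257522), the RAR form typical of epidermis, was abundant and steady, at 178, 141 and 108 CPM in the shControl tumors, 127, 149 and 192 CPM in the sh2 tumors and 89.1, 112 and 136 CPM in the sh3 tumors. Its range over the 9 tumors was 2.15-fold, the smallest of the 9 genes, and all groups overlapped. Its log2 fold change was 0.14 (SE 0.24, FDR = 0.999, edgeR) with sh2 and −0.34 (SE 0.24, FDR = 0.820) with sh3. The nearest genes were *Rpusd1*, *C330006A16Rik*, *Fam46b*, *Mpzl2* and *Fbxw9* (r = 0.92 to 0.95). None of them stayed in the nearest 5 when the first sh3 or the first shControl tumor was left out.

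*Rarb* (chr14:16430839-17082331), the RAR form with the DR5 element shown above, was scarce. It had 17, 31 and 62 counts in the shControl tumors, 55, 66 and 50 in the sh2 tumors and 12, 40 and 26 in the sh3 tumors, or 1.51 ± 0.929 CPM, 2.53 ± 0.581 CPM and 1.23 ± 0.746 CPM (SD, n = 3 each). Fitted values gave a log2 fold change of 0.74 (SE 0.57, FDR = 0.999, edgeR) with sh2, −0.30 (SE 0.57, FDR = 0.937) with sh3, and −1.04 (SE 0.57, FDR = 0.684) for sh3 against sh2. Every sh3 tumor was below every sh2 tumor, but by little, the nearest tumors being at 2.03 and 2.09 CPM. The nearest genes were *Adam9*, *2010315B03Rik*, *Col10a1*, *Nek7* and *Gpr85* (r = 0.89 to 0.96).

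Degradation was represented by *Cyp26b1* (chr6:84571414-84593908), which was at 25.9, 8.48 and 8.80 CPM in the shControl tumors, 9.98, 19.2 and 10.5 CPM in the sh2 tumors and 8.97, 5.13 and 7.48 CPM in the sh3 tumors. Every sh3 tumor was below every sh2 tumor, and the controls held the highest tumor of all. The log2 fold change was −0.12 (SE 0.47, FDR = 0.999, edgeR) with sh2, −0.999 (SE 0.48, FDR = 0.760) with sh3 and −0.88 (SE 0.48, FDR = 0.683) for sh3 against sh2. Without the first shControl tumor the sh3 value was −0.27. The nearest genes were *Ell*, *Lrrc45*, *Ccdc97*, *Cldn25* and *Abhd11* (r = 0.91 to 0.93), and again none stayed in the nearest 5 without the first sh3 or the first shControl tumor.

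*Cyp26a1*, the second degrading enzyme and the second gene with a DR5 element, had 14, 21 and 12 counts in the shControl tumors, 8, 43 and 34 in the sh2 tumors and 7, 4 and 9 in the sh3 tumors. Its 2 highest tumors were the second and the third sh2 tumors, at 2.08 and 1.42 CPM, which were also the 2 highest for *Aldh1a3*, while the first sh2 tumor, at 0.34 CPM, lay among the sh3 tumors. Its log2 fold change was 0.96 (SE 0.61, FDR = 0.999, edgeR) with sh2, −1.08 (SE 0.66, FDR = 0.779) with sh3 and −2.04 (SE 0.65, unadjusted P = 0.0120, FDR = 0.673) for sh3 against sh2. *Rarb* also had its highest tumor in the second sh2 tumor, at 3.19 CPM, but its next was the third control, at 2.54 CPM. The second sh2 tumor was the highest tumor for 14.9% of all genes tested. For *Cyp26a1*, every sh3 tumor was also below every control, as for 5.42% of all genes tested.

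Read across the 9 genes, the fitted values of sh2 and sh3 had opposite signs for *Aldh1a2*, *Aldh1a3*, *Rarb*, *Rarg* and *Stra6*. Except for *Aldh1a3*, leaving out a single tumor could give both values of a gene the same sign. Against shControl, 6 of 9 fitted log2 fold changes were positive with sh2 (median 0.22, against 0.01 and 51.8% positive over all genes tested). With sh3, 8 of 9 were negative (median −0.59, against 0.03 and 45.1% negative over all genes). In sh3 against sh2 all 9 were negative (median −0.88, against 0.03 and 45.1% negative over all genes). That count was 8 of 9 without the second sh2 tumor and 7 of 9 without the first sh3 tumor, and *Aldh1a3*, selected for high sh2 values, is one of the 9. The first sh3 tumor was the lowest of the 9 tumors for 5 of the 9 genes, and it was the lowest for 22.6% of all genes tested.

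**Figure D4:**
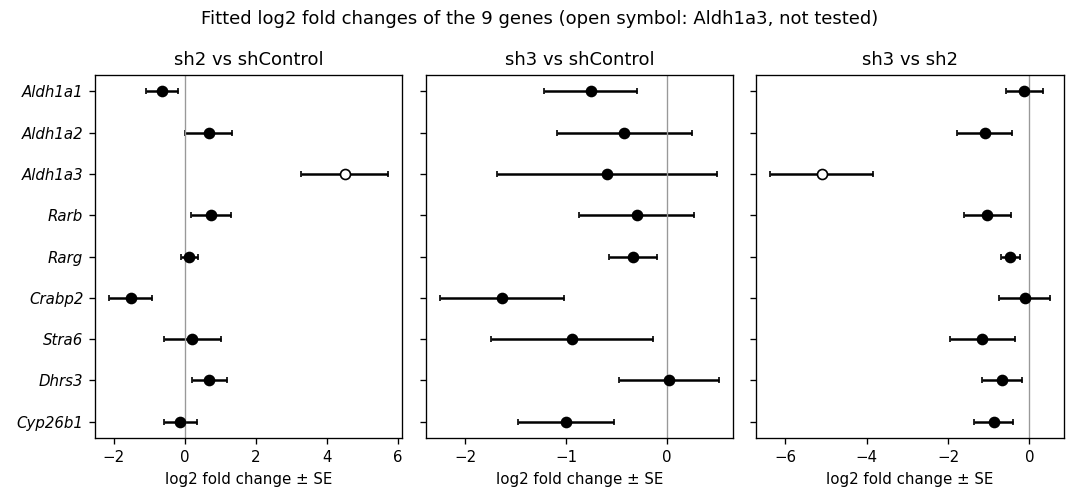
Fitted log2 fold change with its SE for each of the 9 genes in 3 comparisons, with a separate horizontal scale per panel; the open symbol is *Aldh1a3* in the comparisons with sh2, given without a test. All 9 values are below 0 for sh3 against sh2, and 8 of 9 for sh3 against shControl, beside 45.1% of all genes tested in each.

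None of these differences passed the test across all genes. At an FDR under 0.05, edgeR's quasi-likelihood test called 0% of 14725 genes with sh2, 0% with sh3, 0% with both shRNAs and 0% for sh3 against sh2, and none of the 9 genes. At an unadjusted P under 0.05 the background was 3.52% of genes with sh2, 6.63% with sh3, 4.09% with both and 7.18% for sh3 against sh2. *Crabp2* alone of the genes not selected was under that value, in each of the first 3 comparisons and not in the last. DESeq2's Wald test called 2, 41, 9 and 46 genes in the same order at an FDR under 0.05, and none of the 8 genes not selected on sh2 was among these.

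Groups without overlap were also counted. All tumors of one group were higher in 5.58% of genes with sh2 and lower in 5.83%, and of the 9 genes *Aldh1a3* was higher, as selected, and none was lower. With sh3 the background was 6.78% higher and 5.42% lower, and with both shRNAs it was 1.22% higher and 0.958% lower, and none of the 9 genes was in either. For sh3 against sh2, 5.52% of genes were higher and 4.63% lower in every tumor. There, *Rarb* and *Cyp26b1* were lower, 2 of the 8 genes not selected on sh2, beside *Aldh1a3*.

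The rest of the pathway was read from lists of 71 further genes, of which 68 were in the table and 54 passed the filter. None passed an FDR of 0.05 in any comparison. With sh2, 27 of the 54 had a positive log2 fold change and 27 a negative one (median −0.00, against 0.01 and 51.8% positive over all genes tested). With sh3, 16 were positive and 38 negative (median −0.12, against 0.03 and 45.1% negative over all genes). For sh3 against sh2, 25 were positive and 29 negative (median −0.05, against 0.03 and 45.1% negative over all genes).

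**Figure D5:**
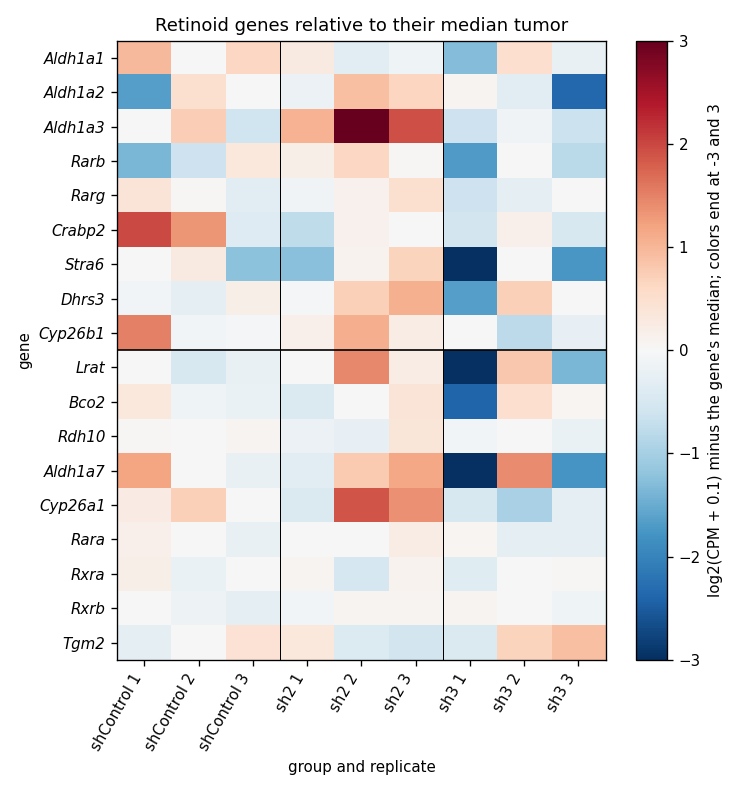
Level of the 9 genes (above the line) and of 9 further retinoid genes (below it) in each tumor, as log2(CPM + 0.1) minus the median of the gene over the 9 tumors, with colors ending at −3 and 3. *Aldh1a3* is high in the sh2 tumors, *Stra6*, *Lrat*, *Bco2* and *Aldh1a7* are low in the first sh3 tumor, and the rows of *Rdh10*, *Rara*, *Rxra* and *Rxrb* are nearly flat.

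The abundant core of the pathway was steady. *Rdh10*, the main retinol dehydrogenase of the first oxidation, was at 298 to 459.6 CPM over the 9 tumors, with log2 fold changes of −0.03 (SE 0.18, FDR = 0.999, edgeR) with sh2 and −0.13 (SE 0.18, FDR = 0.903) with sh3. The receptor *Rara* was at 49.3 to 70.7 CPM, and the RXR partners *Rxra* and *Rxrb* at 64.2 to 102 CPM and 55.9 to 73.2 CPM. Of 9 receptor and partner genes tested, 6 had a positive value with sh2 and 2 with sh3, and none passed. Over all genes tested, 51.8% were positive with sh2 and 54.9% with sh3.

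Single carriers and storage enzymes differed widely between tumors. *Rbp4*, the plasma retinol carrier, had 38, 26 and 38 counts in the shControl tumors, 22, 1 and 45 in the sh2 tumors and 4, 22 and 43 in the sh3 tumors. *Lrat*, which esterifies retinol for storage, had 38, 27 and 33 counts in the shControl tumors, 38, 93 and 45 in the sh2 tumors and 1, 57 and 13 in the sh3 tumors. The low sh3 tumor for *Lrat* was again the first, where *Bco2*, a carotenoid-cleaving enzyme, had 11 counts against 55 to 99 elsewhere, and *Aldh1a7*, a relative of *Aldh1a1*, had 0, which allows up to 0.139 CPM. *Bco2* and *Aldh1a7* were named after their values were seen.

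An unadjusted P under 0.05 was reached by 1 of the 54 genes with sh2, 1 with sh3, 1 with both shRNAs and 2 for sh3 against sh2, which are no larger shares than the 3.52%, 6.63%, 4.09% and 7.18% of all genes tested. *Rbp2*, the intestinal retinol carrier, was at 2.98, 2.44 and 1.02 CPM in the shControl tumors, 1.05, 0.24 and 0.88 CPM in the sh2 tumors and 2.22, 2.44 and 1.20 CPM in the sh3 tumors. It was higher in every sh3 tumor than in every sh2 tumor, with a log2 fold change of 1.41 (SE 0.60, unadjusted P = 0.0434, FDR = 0.673, edgeR), and its value was −1.55 (SE 0.60, unadjusted P = 0.0294, FDR = 0.999) for sh2 against shControl. *Adh5*, a broadly expressed alcohol dehydrogenase, was at 91.7, 96.3 and 85.4 CPM in the shControl tumors. In the sh3 tumors it was at 99.9, 145 and 112 CPM, every one of them higher, and every sh2 tumor was also above every control. Its log2 fold change was 0.38 (SE 0.15, unadjusted P = 0.0287, FDR = 0.753, edgeR) with sh3 and 0.19 (SE 0.15, FDR = 0.999) with sh2. *Cyp26a1*, described above, and *Adh1* were the others. *Adh1*, an alcohol dehydrogenase named after its values were seen, had a log2 fold change of −1.98 with both shRNAs (FDR = 0.982, edgeR), and its groups overlapped. Of the 54 genes, 3 with sh2, 2 with sh3 and 2 with both shRNAs were above every control in every tumor. The shares over all genes tested were 5.58%, 6.78% and 1.22%. With sh3, 2 were below every control, beside 5.42% of all genes. *Adh5* and *Dhrs9*, the latter named after its values were seen, were the 2 with both shRNAs.

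Known retinoic acid targets beyond the 9 genes were on both sides of the controls. Of 17 tested, 10 had a positive log2 fold change with sh2 (median 0.12) and 7 with sh3 (median −0.00), and none passed. The positive shares over all genes tested were 51.8% with sh2 and 54.9% with sh3. *Tgm2*, transglutaminase 2, a target induced by retinoic acid in many cells, was at 229, 283 and 384 CPM in the shControl tumors, 351, 212 and 194 CPM in the sh2 tumors and 208, 453 and 532 CPM in the sh3 tumors. Its log2 fold change was −0.24 (SE 0.37, FDR = 0.999, edgeR) with sh2 and 0.41 (SE 0.37, FDR = 0.848) with sh3, and the second sh2 tumor, where *Aldh1a3* was highest, was within the range of the other tumors.

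Likeness over tumors also depended on single libraries for *Aldh1a3*. Its nearest genes over 9 tumors were *Mettl20*, *Sipa1l1*, *Tmem181c-ps*, *Ctnnb1* and *Pgap1* (r = 0.96 to 0.97, of 13604 genes compared). Without the second sh2 tumor they were *Espn*, *Ppp1r3b*, *Ctnnb1*, *D2hgdh* and *Ptges* (r = 0.92 to 0.97), with *Ctnnb1*, which encodes beta-catenin, in both lists. Without the first sh3 tumor they were *Pdgfa*, *Ralgps2*, *Trpm6*, *Pde5a* and *Tmem181c-ps* (r = 0.97 to 0.98), and *Ctnnb1* was not among them. These correlations are descriptions of 9 or 8 tumors that share their libraries and groups.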

How the data were processed

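RNA of 9 KLN205 tumors was analysed, 3 per group, with groups and replicate numbers taken from the labels of the samples. The shRNAs labelled sh2 and sh3 appear in the study as shRNA1 and shRNA2. According to the study's methods and the submitters' processing notes, the authors checked reads with FastQC, aligned them with STAR 2.5.3a (build mm10) and made read counts per gene with featureCounts, and these raw counts were deposited. The kit was stranded; the strand setting of the counting is not given in the sources used here. The authors also deposited TPM, scaled by gene length, which were used here only to compare levels between genes. The authors' CPM columns, and their edgeR fold changes and P values for each shRNA against the control, were not used.

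Counts were fitted in R 4.3.3 with edgeR 4.0.16 over all 9 tumors, after filterByExpr and TMM scaling, with robust quasi-likelihood tests of each shRNA, both shRNAs and sh3 against sh2, and Benjamini-Hochberg adjustment over 14725 genes (threshold 0.05). The SE was worked back from the test, as the absolute log2 fold change divided by the square root of the F statistic. Likeness was Pearson's r on log2 CPM (prior count 2) over the genes averaging 1 CPM or more. The 9 genes, the 7 retinoid lists (71 genes) and the 10 marker lists were chosen with earlier results of these data known. Named genes were the 9, a set of core retinoid genes, list genes under an unadjusted P of 0.05 without overlap, and the 5 genes most like each. Not every core gene is reported here. Promoters and coordinates came from RefSeq (GRCm38.p6, the build of mm10), and no promoter window of *Aldh1a3* or *Crabp2* was available to search. Figures were made with matplotlib 3.10.9.

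Alternatives were DESeq2 1.42.0 (size factors and Wald test), edgeR's likelihood ratio test, omission of single tumors, a replicate block, fits of the compared groups alone, and a filter either dropped or raised to 10 counts in all tumors. Likeness and counts of directions without single tumors were added after seeing the data. The main fit was tested on simulated counts for sh2 against shControl. At an FDR under 0.05 it recovered 20.9% of log2 changes of 1, 68.7% of those of 2 and 89.4% of those of 3. A gene that did not pass can therefore still have changed. Tumors of a group are biological replicates per the labels.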

Additional observations from a re-analysis of the deposited data

Results flagged for a closer look

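For *Aldh1a3*, every tumor of one shRNA was above the control mean and every tumor of the other below it. The control mean was 19.6 CPM, all 3 sh2 tumors were above it (36.5, 1232 and 67.9 CPM) and all 3 sh3 tumors were below it (11.5, 16.3 and 11.2 CPM). Since the gene was selected on the sh2 tumors, no test of this difference is given as a result, and both sides share the control tumors.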

How the results depend on the processing

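The count of genes past an FDR of 0.05 was 0 in every comparison with the quasi-likelihood test, and it became 2 (sh2), 41 (sh3), 9 (both) and 46 (sh3 against sh2) with DESeq2's Wald test, and 8 (sh3), 8 (both) and 14 (sh3 against sh2) with edgeR's likelihood ratio test. Among the 9 genes and the retinoid lists, the count became 1 with each of these tests, in sh3 against sh2. That gene was *Aldh1a3*, which was selected on the sh2 values this comparison uses, so the call supports nothing. The cause was not tested. Leaving out single tumors, which was run with the quasi-likelihood test, left its counts at 0.

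With the replicate block, *Cyp26b1* in sh2 against shControl turned to 0.052 and *Dhrs3* in sh3 against shControl to −0.22, and *Dhrs3* was also −0.0012 when only the groups compared were fitted. The same replicate number did not pair tumors (mean r of −0.099 over 9 pairs, 0 of them over 0.1), so the block was not used above, and it changed no call. Leaving out 1 tumor at a time turned the sign of several small log2 fold changes. With sh2 the ranges were −0.48 to 0.61 for *Cyp26b1*, −0.031 to 0.33 for *Rarg* and −0.24 to 0.59 for *Stra6*. With sh3 they were −0.55 to 0.44 for *Dhrs3*, −0.90 to 0.029 for *Aldh1a2* and −0.85 to 0.27 for *Rarb*. With both shRNAs they were −0.29 to 0.59 for *Aldh1a2*, −0.12 to 0.80 for *Rarb*, −0.27 to 0.085 for *Rarg* and −0.83 to 0.17 for *Cyp26b1*. For sh3 against sh2 they were −0.63 to 0.23 for *Aldh1a1* and −0.41 to 0.054 for *Crabp2*. None of these was past the threshold. Without the second sh2 tumor, *Aldh1a3* was at 1.42 for sh2 against shControl and −2.03 for sh3 against sh2, against 4.51 and −5.10 with it.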
